A study of Mus musculus with 24 samples.

Results

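The genes described here encode 8 cathepsins (Ctsb, Ctsc, Ctsd, Ctsg, Ctsk, Ctsl, Ctss and Ctsz) and a pair of secreted cystatins (Cst3 and Cst6), chosen by symbol from the expression table, and they are 10 of its 18368 genes. RNA was measured in whole skin of CD1 mice aged 7 weeks whose hair cycles were described as coordinated in the resting phase, telogen. Each of 12 mice carried full-thickness 2 mm punch wounds at 1 site only, the abdomen, the back or the cheek, with a single wound on a cheek and a pair on an abdomen or a back. At day 3 a 2 mm biopsy was taken of the wound and of unwounded skin beside it, which gave 24 libraries, 4 in each of the 6 combinations of site and state. The unwounded samples therefore came from shaved, anaesthetised mice that bore a wound nearby, and no skin of unwounded animals was included.

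Cathepsins are proteases of the lysosome, the acidic compartment in which cells degrade proteins, and several also act outside cells. Ctsb, Ctsc, Ctsk, Ctsl, Ctss and Ctsz are cysteine proteases of the papain type, Ctsd is an aspartic protease and Ctsg a serine protease of leukocyte granules. Cystatins bind papain-type cathepsins tightly and block them, whereas they do not inhibit cathepsin D or cathepsin G. In skin these enzymes are known for turnover of collagen and elastin, for antigen processing in phagocytes and for maturation of the epidermis.

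Every member was detected in all 24 libraries and passed the filter on low values. Levels are given as FPKM (fragment counts corrected for transcript length and for library size), which allows different genes to be compared. FPKM summed over genes lay between 490830 and 608888 per library. Markers of the labelled tissue were present throughout, and the summed FPKM of 6 fibroblast genes was between 4889.63 and 16117.66. The unwounded cheek library of mouse 4 stood apart, with 3982.25 FPKM over 4 keratin genes of growing hair follicles, while the lowest unwounded cheek library held 0.55 FPKM. For these keratins an unwounded back library reached 66.85 FPKM (group median 0.785) and a back wound 18.01 FPKM (group median 0.59). Such values go against a resting phase in every sample. Unwounded abdomen of mouse 2 had the lowest summed FPKM of 6 skeletal muscle genes, 512.18, against a median of 8647 for that group. Values without cheek mouse 4 or abdomen mouse 2 are given where they change a call.

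**Figure D1:**
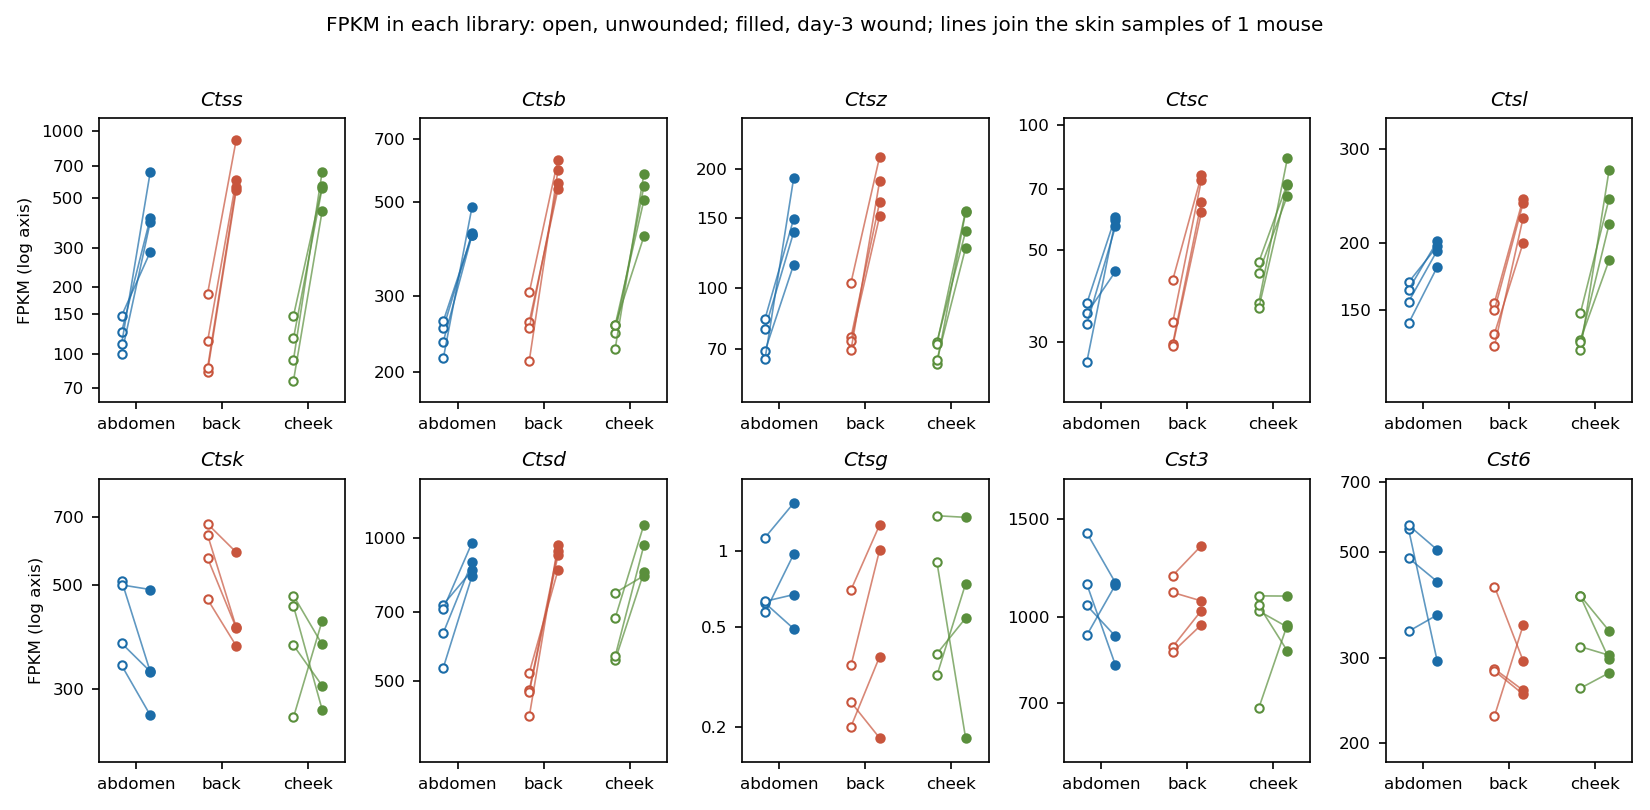
FPKM of each of the 10 genes (vertical log axes, a separate scale per gene) in the 24 libraries by site; open circles are unwounded skin, filled circles day-3 wounds, and each line joins the samples of 1 mouse. In the panels of Ctss, Ctsb, Ctsz, Ctsc, Ctsl and Ctsd all 12 lines rise and open and filled circles of a site do not overlap, whereas the Cst3 and Cst6 lines cross.

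In wounds, transcripts of 6 cathepsins were higher than in unwounded skin and no member was called lower. With the threshold of 0.001 on the limma adjusted p, Ctss, Ctsb, Ctsz and Ctsc rose at all 3 sites, Ctsl rose in back and cheek, and Ctsd rose in back. Abdomen thus had 4 of 10 members called, back 6 and cheek 5. In abdomen 3.92% of the 14423 genes tested were called higher and 1.04% lower, in back 10% and 4.37%, and in cheek 6.5% and 2.19%. At 0.05 the same 6 genes were called higher at every site, where the shares of all genes called higher were 16.9, 28 and 19.7% (abdomen, back and cheek). Over the 10 members the median log2 differences of abdomen, back and cheek were 0.38, 0.81 and 0.65, against -0.01, 0.07 and 0.01 over all tested genes. For each of these 6 genes the 4 mice of each site all rose, and the 2 groups did not overlap. Of all tested genes, 13.4, 25 and 16.7% were higher in wounds without overlap (abdomen, back and cheek). The smallest two-sided p that 4 mice allow in the exact sign-change test is 0.125, so calls rest on limma. In bulk skin, fewer cells of a type and less RNA per cell cannot be told apart. The abdomen count was 2 (Ctss and Ctsz) without abdomen mouse 1, 2 or 4, with an adjusted p of at most 0.0022 for Ctsb. With the spread estimated from a site's own 8 libraries, abdomen had 0 calls, back 6 and cheek 1 (Ctss), while all genes called at these sites numbered 67, 2204 and 248.

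The promoter of Ctss is printed first because Ctss changed most. RefSeq (GRCm38.p6) windows of 250 bases before and 50 after the annotated start were held for 8 of the 10 members, without Ctsb and Cst6. Motifs, in capitals, were chosen after the sequences were seen and searched on both strands. They are GAGGAAGT, the type of site bound by the myeloid factor PU.1, and CACGTG (TCACGTGA in its longer form, which contains it), the type bound by Tfeb, Tfe3 and Mitf. Shorter forms of these, and motifs of interferon-response and AP-1 type, were also searched at first and are not shown.
Ctss, chr3:95526686-95526791, plus strand, the 100 bases before the start and the first 6 transcribed: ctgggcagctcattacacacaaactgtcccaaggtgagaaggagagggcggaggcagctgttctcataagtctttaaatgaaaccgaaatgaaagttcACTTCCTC
Ctsc, chr7:88277923-88277952, plus strand: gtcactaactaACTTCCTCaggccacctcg
Ctsd, chr7:142388048-142388077, minus strand: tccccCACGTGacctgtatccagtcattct
Ctsd, chr7:142387908-142387937, minus strand: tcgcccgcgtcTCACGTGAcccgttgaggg
Ctsl, chr13:64370739-64370768, minus strand: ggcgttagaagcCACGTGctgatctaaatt
Ctsk, chr3:95499110-95499209, plus strand, the 100 bases before the start: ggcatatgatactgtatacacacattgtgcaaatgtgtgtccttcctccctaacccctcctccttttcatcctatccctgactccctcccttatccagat
In Ctss the GAGGAAGT match, read on the opposite strand, ran from -2 to 6 across the start. Of all 32851 promoter windows, 3.2% held GAGGAAGT. GAGGAAGT was also in Ctsc, from -151 to -144. CACGTG began at -245 and -98 in Ctsd and at -236 in Ctsl, and was in 7.15% of windows (TCACGTGA, at -99 in Ctsd, in 0.974%). In GENCODE all 30 bases of the second Ctsd stretch lie in the first exon of the transcript Ctsd-202 (chr7:142387737-142388038), and 15 of the 30 printed for Ctsl lie in that of Ctsl-203 (chr13:64370706-64370753). The windows of Ctsk, Ctsg, Ctsz and Cst3 held none of these letters, and Ctsk is shown as the papain-type member that was not called higher in wounds. A match describes the sequence and is not evidence of binding.

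Ctss encodes cathepsin S, a protease active also at neutral pH that cleaves elastin and trims the invariant chain of class II molecules in antigen-presenting cells. In abdomen, unwounded skin of mice 1 to 4 held 99.5, 148, 125 and 110 FPKM, and their wounds held 391, 287, 406 and 656 FPKM. In back the values were 113, 82.9, 186 and 86.1 FPKM in unwounded skin and 602, 542, 914 and 563 FPKM in the wound, and in cheek 148, 93.9, 117 and 75.7 against 564, 658, 556 and 438 FPKM. The lowest wound library at each site was above the highest unwounded one, and the means of the wound groups were 435 ± 157, 656 ± 174 and 554 ± 90.3 FPKM (SD, n = 4). The log2 difference was 1.80 ± 0.20 (SE; 3.47-fold; adjusted p = 7.1e-05) in abdomen. It was 2.53 ± 0.20 (5.76-fold, 2.2e-06) in back and 2.37 ± 0.20 (5.18-fold, 4.5e-06) in cheek.

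Ctsb (chr14:63122462-63145923) encodes cathepsin B, an abundant lysosomal endopeptidase that also removes dipeptides. Unwounded abdomen of mice 1 to 4 held 235, 253, 263 and 215 FPKM and the wounds 417, 422, 417 and 485 FPKM. Unwounded back held 261, 253, 306 and 212 FPKM against 535, 555, 627 and 592 FPKM in wounds. Unwounded cheek held 257, 246, 227 and 257 FPKM against 504, 543, 581 and 415 FPKM in wounds. Unwounded levels were alike at the 3 sites within their spread, and the wounds of every site lay wholly above them. The log2 differences were 0.85, 1.17 and 1.04 in abdomen, back and cheek (each SE 0.12), with limma adjusted p of 0.00028, 1.1e-05 and 4e-05.

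Ctsz (chr2:174427494-174439039) encodes cathepsin Z, a carboxypeptidase found in monocytes and macrophages among other cells. Its wounds held 138, 114, 149 and 190 FPKM in abdomen, against 78.6, 69.1, 83.4 and 66 FPKM in unwounded skin of the same mice. In back they held 165, 152, 215 and 186 FPKM against 74.8, 73.2, 103 and 69.5 FPKM, and in cheek 139, 155, 156 and 126 against 72.9, 64, 72 and 65.5 FPKM. Back mouse 3 was the highest of its group in both states, as it was for Ctss. The rise was close to 2-fold at each site, with log2 differences of 0.97, 1.16 and 1.06 (SE 0.12; limma adjusted p = 0.00012, 1.3e-05 and 3.5e-05).

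Ctsc (chr7:88278024-88315861) encodes cathepsin C, the dipeptidyl peptidase that activates the granule serine proteases of neutrophils and mast cells, cathepsin G among them. It was the least abundant of the papain-type members. Abdomen held 26.8, 37.1, 35.1 and 33 FPKM unwounded and 59.1, 60.2, 44.3 and 56.9 FPKM in wounds. Back held 33.4, 29.6, 42.3 and 29.3 FPKM against 73.8, 65.2, 75.6 and 61.6 FPKM, and cheek 46.6, 37.2, 36.1 and 43.9 against 72.3, 83.2, 71.8 and 67.6 FPKM. All groups separated by state, but the abdomen difference was near the threshold (log2 0.73 ± 0.12, limma adjusted p = 0.00085). When single mice were omitted, its adjusted p exceeded 0.001 for 9 of 12, up to 0.0053. In back the log2 difference was 1.04 (adjusted p = 3e-05) and in cheek 0.84 (0.00021). The cheek call was lost without cheek mouse 2 or 3, at adjusted p of at most 0.002.

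Ctsl (chr13:64361890-64370772) encodes cathepsin L, an endopeptidase with known roles in hair follicles and epidermis. Unwounded abdomen held 155, 169, 164 and 142 FPKM and the wounds 194, 197, 202 and 180 FPKM, the smallest rise among the 6 genes (log2 0.30 ± 0.09, limma adjusted p = 0.024). In back unwounded skin held 135, 128, 155 and 150 FPKM and wounds 200.3, 223, 242 and 238 FPKM, and in cheek the values were 148, 132, 126 and 131 against 242, 186, 274 and 217 FPKM. The log2 difference was 0.67 in back (adjusted p = 1e-04) and 0.76 in cheek (5.1e-05). The back call at 0.001 was lost without back mouse 2 and with quantile normalization, each with an adjusted p of 0.0013.

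Ctsd (chr7:142375910-142387827) encodes cathepsin D, the aspartic protease of the lysosome, and was the most abundant cathepsin in 5 of the 6 groups. Back skin of mice 1 to 4 held 521, 478, 474 and 421 FPKM unwounded and 855, 940, 919 and 967 FPKM in wounds. Abdomen held 632, 724, 710 and 534 FPKM against 889, 855, 977 and 831 FPKM, and cheek 554, 564, 679 and 767 FPKM against 847, 965, 1067 and 833 FPKM. Wounds of the 3 sites had means of 888, 920 and 928 FPKM, and the unwounded back libraries lay below those of the other sites. The log2 difference was 0.96 ± 0.11 in back (limma adjusted p = 3.9e-05), 0.46 in abdomen (0.0096) and 0.54 in cheek (0.0031). Without cheek mouse 4, whose unwounded library held the growing-follicle keratins, the cheek difference was 0.68 with an adjusted p of 0.00081, past the threshold.

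**Figure D2:**
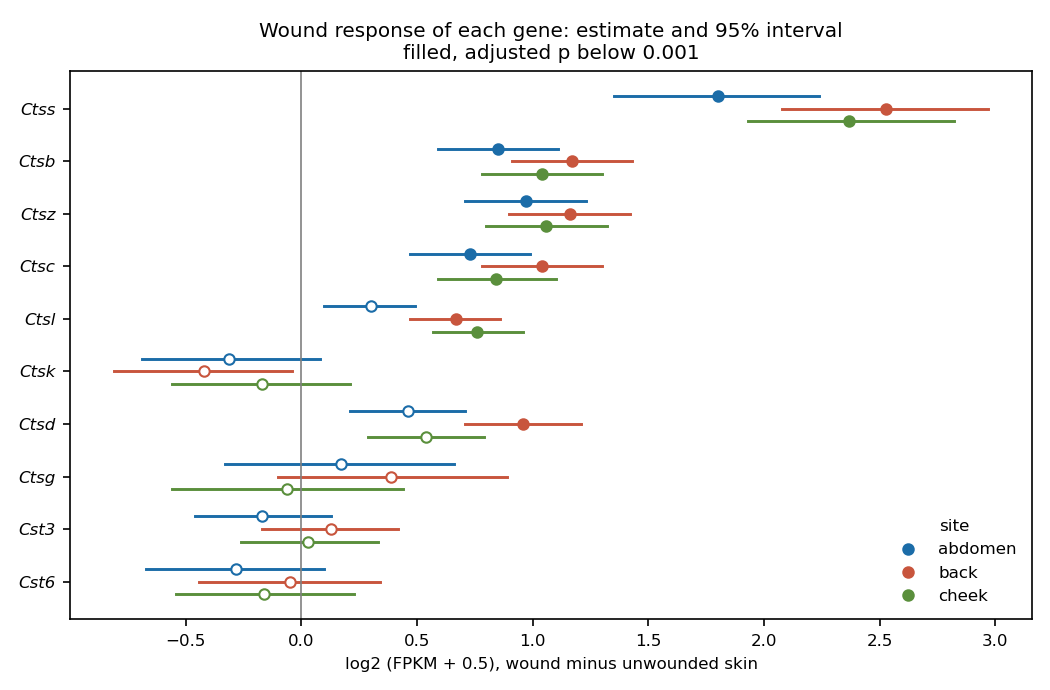
Wound response of the 10 genes at the 3 sites; points are limma estimates of the difference in log2(FPKM + 0.5), wound minus unwounded (n = 4 mice per site), lines are 95% intervals, and filled points have an adjusted p below 0.001. Ctss lies farthest to the right (1.80 to 2.53), and the intervals of Ctsg, Cst3 and Cst6 include 0 at every site.

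Ctsk (chr3:95499210-95509387) encodes cathepsin K, a collagenase best known from osteoclasts and also made by dermal fibroblasts. It was the only papain-type member that was not called higher in any wound. Abdomen held 511, 337, 375 and 501 FPKM unwounded and 326, 263, 327 and 490 FPKM in wounds. Back held 572, 466, 641 and 677 FPKM against 405, 371, 406 and 589 FPKM, and cheek 475, 451, 372 and 261 against 373, 271, 304 and 419 FPKM. Wound values were below the paired unwounded values in all mice of abdomen and back and in 3 of 4 of cheek, the exception being mouse 4, and the groups overlapped everywhere. The log2 differences of -0.31, -0.42 and -0.17 were not called (limma adjusted p = 0.20, 0.069 and 0.48). Without cheek mouse 4 the cheek difference was -0.46 (adjusted p = 0.02), and the back difference -0.42 (0.011), neither past 0.001. The summed level of 6 fibroblast markers had a lower median in wounds at each site (7757 against 13030 FPKM in abdomen, 8262 against 12880 in back and 6807 against 10100 in cheek), with 0 of 6 called at any site. The 6 did not move alike, since Pdgfra, a receptor of fibroblasts, was higher in wounds of back (23 against 15.2 FPKM) and cheek (29.6 against 19.2 FPKM) and Lum differed by -0.04 in back on the log2 scale. Their part in the Ctsk values was not tested. Calcr, Ocstamp, Dcstamp and Oscar, markers of osteoclast-type cells, summed to at most 3.09 FPKM in any library.

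Ctsg (chr14:56099885-56102574) encodes cathepsin G, stored in granules that neutrophils fill while still in the bone marrow, and in mast cells. It was near the detection limit of these data, at 0.18 to 1.55 FPKM, and its groups overlapped at every site. The log2 differences were 0.17, 0.39 and -0.06 at the 3 sites (limma adjusted p = 0.61, 0.18 and 0.87). With the pseudocount of 0.5 FPKM, fold changes at this level are understated. None of the tested granule genes of neutrophil precursors was called (3 of 5 were tested), and none of 6 mast cell genes. Of the granule genes, Mpo had lower means in wounds of abdomen, back and cheek (16.5 against 31.6, 5.44 against 9.21 and 4.11 against 13.7 FPKM). Prtn3 means were also lower at each site, and those of Camp in abdomen and back but not in cheek. Slpi, an inhibitor of neutrophil serine proteases, rose by 4.61, 5.28 and 5.16 on the log2 scale in abdomen, back and cheek, from 1.44, 1.58 and 1.18 FPKM.

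The secreted inhibitors did not follow the cathepsins. Cst3 (chr2:148871722-148875512) encodes cystatin C, made by most cells, and had the highest mean of the 10 genes in all 6 groups. Its values were 1145, 1049, 1415 and 927 FPKM in unwounded abdomen and 820, 923, 1151 and 1141 FPKM in abdomen wounds. In back they were 1106, 884, 865 and 1186 against 1068, 1027, 968 and 1342 FPKM, and in cheek 1025, 1091, 1048 and 686 against 959, 1090, 869 and 968 FPKM. States overlapped at each site, with log2 differences of -0.17, 0.13 and 0.03 and 95% intervals within -0.46 and 0.42 (limma adjusted p = 0.37, 0.47 and 0.88). The sign in back turned to -0.07 with quantile normalization, and that in cheek to -0.12 without mouse 4, again with no call.

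Cst6 (chr19:5344705-5349574) encodes cystatin M/E, an inhibitor of cathepsin L and legumain made in the outer epidermis and hair follicles. It held 342 to 570 FPKM in unwounded abdomen and 296 to 506 FPKM in abdomen wounds. The ranges in back were 227 to 424 FPKM unwounded and 253 to 352 FPKM in wounds, those in cheek 260 to 405 and 280 to 343 FPKM. The states overlapped at each site, and the log2 differences of -0.28, -0.05 and -0.16 were not called (limma adjusted p = 0.24, 0.84 and 0.52).

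The make-up of the papain-type cathepsin transcripts shifted with these differences. Ctsk gave 40.6% ± 7 (SD, n = 4) of the FPKM summed over the 6 papain-type genes in unwounded abdomen and 21.5% ± 1.7 in its wounds. Back had shares of 48.3% and 20.7%, and cheek of 39% and 18.6%. Ctss moved the other way, with 11.5% of the sum in unwounded abdomen and 26.3% in its wounds, 9.39% and 30.2% in back, and 10.9% and 29.8% in cheek. For both genes the ranges of the 2 states did not overlap at any site. The shares follow from values already tested and are a description without a test. A higher sum lowers the Ctsk share by itself, and Ctsk FPKM overlapped between states at every site without a call. The shares of Ctsb were 22.9%, 21.3% and 25.3% in unwounded skin and 27.3%, 27% and 27.4% in wounds. In unwounded back Ctsk ranked second of the 10 genes by mean, after Cst3 and before Ctsd, whose ranges overlapped with it. In wounds of every site the means of Ctss and Ctsb were above that of Ctsk, and the ranges overlapped except those of Ctss and Ctsk in cheek.

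**Figure D3:**
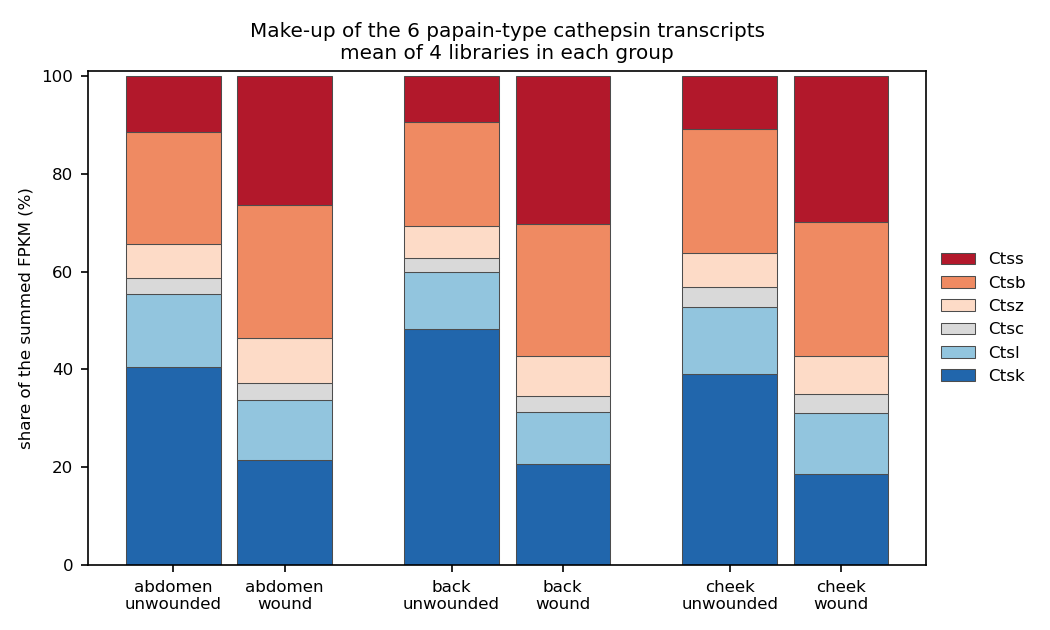
Share of each papain-type cathepsin in the summed FPKM of the 6 genes (stacked bars, percent, mean of 4 libraries) in unwounded skin and wounds of the 3 sites. The Ctsk share goes from 39 to 48.3% of the stack to 18.6 to 21.5%, and that of Ctss from 9.39 to 11.5% to 26.3 to 30.2%. Ctsk FPKM itself was not called lower at any site.

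The summed FPKM of the 6 genes was 1058 ± 40 in unwounded and 1618 ± 310 in wounded abdomen, 1220 ± 160 and 2149 ± 260 in back, and 989 ± 130 and 1854 ± 120 in cheek (SD, n = 4). Cst3 divided by this sum was 1.07 ± 0.2 in unwounded abdomen and 0.631 ± 0.1 in its wounds. It was 0.839 against 0.517 in back and 0.971 against 0.526 in cheek, and the states did not overlap at any site. With Cst6 added to the numerator the ratios were 1.54, 1.09 and 1.33 in unwounded skin and 0.887, 0.654 and 0.692 in wounds. These are ratios of transcript levels and are given as a description, without a test, because they follow from values already tested.

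Levels of cell type markers also differed between wounds and unwounded skin, in both directions. Of all tested genes, 3.92, 10 and 6.5% were called higher (abdomen, back and cheek) and 1.04, 4.37 and 2.19% lower. Of 6 macrophage genes 3, 4 and 4 rose (abdomen, back and cheek), and their summed FPKM was 352 to 413 unwounded and 520 to 724 in wounds of abdomen. In back it was 300.6 to 528 against 720.1 to 871 FPKM, and in cheek 261 to 469 against 612 to 742 FPKM. The sum over 6 neutrophil genes was 8.18 to 37.6 FPKM in unwounded skin of all sites and 344 to 2388 FPKM in wounds, and 4, 5 and 5 of its genes rose. In wounds S100a8 and S100a9 made up most of it, with back wound means of 462 and 748 FPKM. Cxcr2, Csf3r and Retnlg, at 13.9, 18.4 and 20.6 FPKM there, also had higher means in wounds at each site. All 3 keratins of wound-edge epidermis rose at each site. Among 4 dendritic cell genes 1, 2 and 1 rose (abdomen, back and cheek), but these genes did not move alike. Cd207 means were lower in wounds (19.2 against 33.4, 14 against 21.1 and 14.2 against 21.4 FPKM). Flt3 and Itgax had higher means in wounds at each site. Medians of the dendritic sum were 30.72 against 38.66, 25.34 against 24.09 and 28.44 against 27.18 FPKM, and the states overlapped at each site. Skeletal muscle markers had lower medians in wounds (3282 against 8647 FPKM in abdomen, 4169 against 17570 in back and 6052 against 16930 in cheek), with 0 of 6 called. Their sums did not overlap in back (3088 to 4411 FPKM in wounds, 13080 to 20708 unwounded) or cheek (4707 to 6598 and 11098 to 22638). In abdomen they overlapped (1775 to 5361 and 512 to 15707). Medians of the summed adipocyte markers were also lower (393.8 against 934.1, 280.1 against 1137 and 290.9 against 1077 FPKM), with 0, 2 and 0 of 4 called lower. Those of T cell markers were 32.61 against 49.45, 20.2 against 36.02 and 19.59 against 32.82 FPKM, with 0, 1 and 0 of 4 called lower. Summed basal keratinocyte markers had higher medians in wounds (7099 against 3403, 7686 against 3141 and 6863 against 2750 FPKM), with 1 of 4 called higher at each site. They did not move alike. Trp63 means were lower in wounds (39.8 against 50.5, 34.2 against 42 and 42.3 against 51.8 FPKM). Those of Krt5, Krt14 and Itga6 were higher at each site. The part of these cell types in the cathepsin differences was not tested.

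Between sites, no member was called in unwounded skin (0 of 10 in each pair, limma adjusted p under 0.05). Of 13956 genes tested, 2.67% differed between back and abdomen, 2.57% between cheek and abdomen and 1.05% between cheek and back. At an unadjusted p below 0.05, back and abdomen differed in Ctsd, Ctsk and Cst6, cheek and abdomen in Ctsc, Ctsl and Cst6, and cheek and back in Ctsd and Ctsk. These are 3, 3 and 2 of 10 members, where 22, 19 and 21.6% of all tested genes passed that limit, so the shares are near the background. The median of all genes was -0.12 for back minus abdomen and 0.14 for cheek minus back on the log2 scale, so values with median-ratio scaling, which brings these medians to 0 and 0.01, are given as well.

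Ctsd had its lowest unwounded values in back, a difference that was not called. Its 4 back libraries (421 to 521 FPKM) lay below all abdomen (534 to 724) and all cheek libraries (554 to 767), an exact permutation p of 0.029 in each case, the smallest that 4 against 4 can give. Groups did not overlap for 13.3% of all tested genes between back and abdomen and for 14.6% between cheek and back. In limma the log2 differences were -0.45 from abdomen (adjusted p = 0.10; -0.32 with median-ratio scaling) and, for cheek minus back, 0.43 (0.14; 0.28 scaled), neither called. Ctsk had its highest unwounded mean in back, 589 ± 92.6 FPKM, against 431 ± 88.2 in abdomen and 390 ± 96.6 in cheek. For Ctsk, cheek minus back was -0.62 (limma adjusted p = 0.14; -0.76 scaled), and -0.44 without cheek mouse 4. Cst6 was highest in abdomen, 489 ± 105 FPKM, against 305 ± 83.8 in back and 347 ± 71 in cheek, with a back minus abdomen difference of -0.69 (adjusted p = 0.10; -0.56 scaled). Ctsd and Cst6 were called between back and abdomen when all 24 libraries shared an estimate of spread (adjusted p = 0.017 and 0.03) or when abdomen mouse 4 was left out (0.048 and 0.044). Ctsb, Ctss, Ctsz and Cst3 had 95% intervals that included 0 in all 3 pairs of unwounded sites.

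In wounds a single member differed between sites. Ctsc was higher in cheek wounds (67.6 to 83.2 FPKM) than in abdomen wounds (44.3 to 60.2 FPKM), with no overlap and a log2 difference of 0.42 ± 0.11 (limma adjusted p = 0.033). In that comparison 10.8% of 14023 genes were called and 7.52% were called higher in cheek, so 1 of 10 members is close to the background. Groups did not overlap for 19% of all genes there. The Ctsc call was lost with median-ratio scaling, with mouse number as a block and with all 24 libraries in a fit (adjusted p of at most 0.055), and without abdomen mouse 3 or cheek mouse 1, 2 or 3 (up to 0.085). Back against abdomen wounds gave 0 of 10 (1.27% of genes called) and cheek against back wounds 0 of 10 (2.5% called). At an unadjusted p below 0.05 they gave 4 (Ctsb, Ctsc, Ctss and Cst6) and 0 of 10, against 16.5 and 26.1% of all genes. All back wounds held more Ctsb (535 to 627 FPKM) than all abdomen wounds (417 to 485 FPKM), with a log2 difference of 0.41 and a limma adjusted p of 0.075. The same held for Ctsc, at 61.6 to 75.6 FPKM in back wounds (0.33, adjusted p = 0.15), and 9.16% of all genes did not overlap between these groups. For Ctsd the 95% intervals of the 3 differences between wounds lay between -0.19 and 0.26 on the log2 scale.

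The response to wounding was not shown to differ between sites for any member. The F test of the 3 wound effects called 0 of 10, and 0.0208% of all genes, or 3 of 14423. The smallest p among members were those of Ctsl (unadjusted 0.0074, adjusted 0.25) and Ctsd (0.018, 0.30). Ctss followed with an unadjusted p of 0.059 and an adjusted p of 0.40, its largest gap between sites being 0.73 on the log2 scale. Over all genes 12.9% had an unadjusted p below 0.05, against 2 of 10 members. Calls of Ctsl and Ctsd at some sites only are therefore not evidence of a site-specific response.

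**Figure D4:**
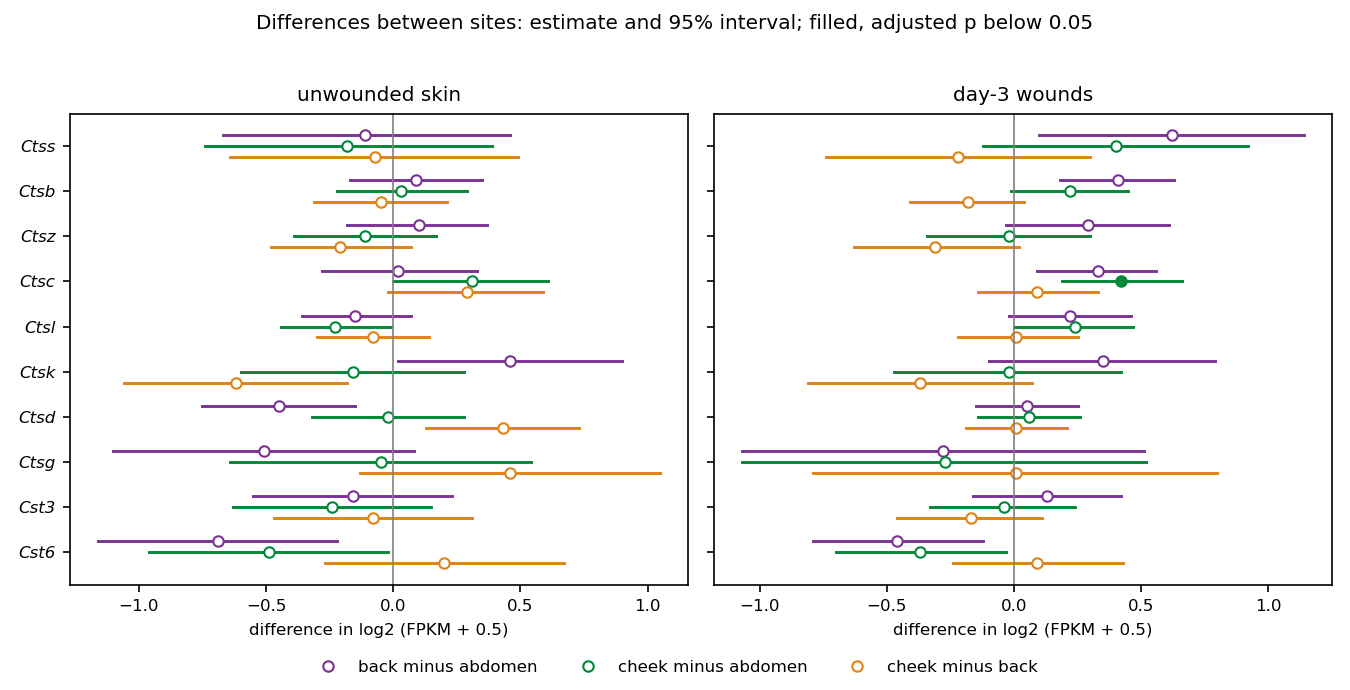
Differences between sites in unwounded skin (left) and wounds (right) for the 10 genes; points are limma estimates of the difference in log2(FPKM + 0.5) with 95% intervals (n = 4 libraries per site), filled when the adjusted p was below 0.05. Only Ctsc, cheek minus abdomen in wounds (0.42), is filled, and unwounded Ctsd lies at -0.45 for back minus abdomen and 0.43 for cheek minus back.

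The other inhibitors of papain-type cathepsins include the stefins, which stay inside cells. The list of other cystatins and stefins holds 24 symbols for 19 genes, 17 of them in the table, and 11 were tested. Gm5416, Gm5483, Stfa1 and Stfa2l1 passed the filter only with the wound libraries, so their rises are given as a description only. Of the 7 that also passed it in the 12 unwounded libraries, the numbers that rose were 5, 6 and 5 (abdomen, back and cheek), and none fell. The shares of all tested genes called higher were 3.92, 10 and 6.5%. The largest mean rises on the list were those of Gm5416 (7.03, 7.54 and 6.79 on the log2 scale), which held at most 0.96 FPKM in unwounded skin so that its values depend on the pseudocount, and BC100530 (6.39, 6.66 and 7.34). Unwounded BC100530 held 51, 63 and 18.1 FPKM in abdomen, back and cheek, and the wounds 3750, 3810 and 2260 FPKM. Csta1 rose by 1.59, 1.90 and 1.48, and Stfa2, Stfa2l1, Stfa3 and BC117090 by between 3.69 and 7.23. Gm5483 was listed at 0 in all unwounded libraries and held 12.23 to 75.26 FPKM in wounds. Stfa1 was called in abdomen only (4.04), where its wound values ran from 2.12 to 321 FPKM. These are near-identical neighbours in the stefin A cluster, so the division of reads among them is uncertain. Cstb, the single stefin B gene, was called in back (0.94) and not in abdomen (0.66, adjusted p = 0.0039) or cheek (0.58, 0.0061).

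Of 6 other cathepsins tested, Ctsa, a carboxypeptidase that also protects lysosomal glycosidases, rose at each site by 0.65, 0.89 and 0.81 on the log2 scale and none fell. Of 7 sorting and processing genes 1, 3 and 1 rose. Lgmn, which encodes legumain, a protease that cleaves single-chain cathepsins into their mature forms, rose at all 3 sites (1.48, 1.80 and 1.63), with means of 78.7, 96.8 and 89 FPKM in unwounded skin and 222, 337 and 276 FPKM in wounds. Of 24 lysosomal hydrolases and cofactors 4, 11 and 10 rose, among them Galns (0.92, 1.31 and 1.30), which degrades keratan sulphate, and Grn (0.97, 1.23 and 1.01), the precursor of lysosomal granulins. Of 16 genes of the lysosomal membrane and proton pump 2, 8 and 5 rose, with the pump subunits Atp6v1b2 (0.71, 1.02 and 0.74) and Atp6v0c (0.71, 0.91 and 0.67) rising at every site. No gene of these lists fell. Of all tested genes, 3.92, 10 and 6.5% were called higher (abdomen, back and cheek), so the larger counts in back are not a site result.

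Transcripts of the lysosomal regulators did not move as a set. Tfe3 was higher by 0.41, 0.77 and 0.46, called in back (limma adjusted p = 2e-05). Tfeb differed by -0.09, -0.34 and -0.55 and Mitf by -0.56, -0.39 and -0.39, with no call. CACGTG was in the promoter windows of 4 of 5 sorting and processing genes with a window, 5 of 19 hydrolases and 5 of 12 membrane and pump genes. It was in 3 of 12 other cathepsins, 1 of 2 inhibitors of cathepsin G, 2 of 8 members and none of the stefins and cystatins (16), class II genes (4) or regulators (3) with a window, beside 7.15% of all windows. A gene was counted if any of its windows matched, whereas 7.15% is a share of single windows, so these measures are unlike. Of 7 genes of class II antigen presentation, the pathway that Ctss serves, none was called at any site at the threshold for wounds. Their median log2 differences were 0.25, 0.76 and 0.53. In back all 7 were higher in wounds, by 0.6 (H2-DMa) to 0.84 (Ciita). Limma adjusted p in back were 0.017 (H2-Eb1), 0.02 (Ciita), 0.026 (H2-Aa), 0.036 (H2-DMb1), 0.045 (Cd74), 0.051 (H2-Ab1) and 0.11 (H2-DMa). Of all tested genes, 28% were higher in back wounds at an adjusted p under 0.05.

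**Figure D5:**
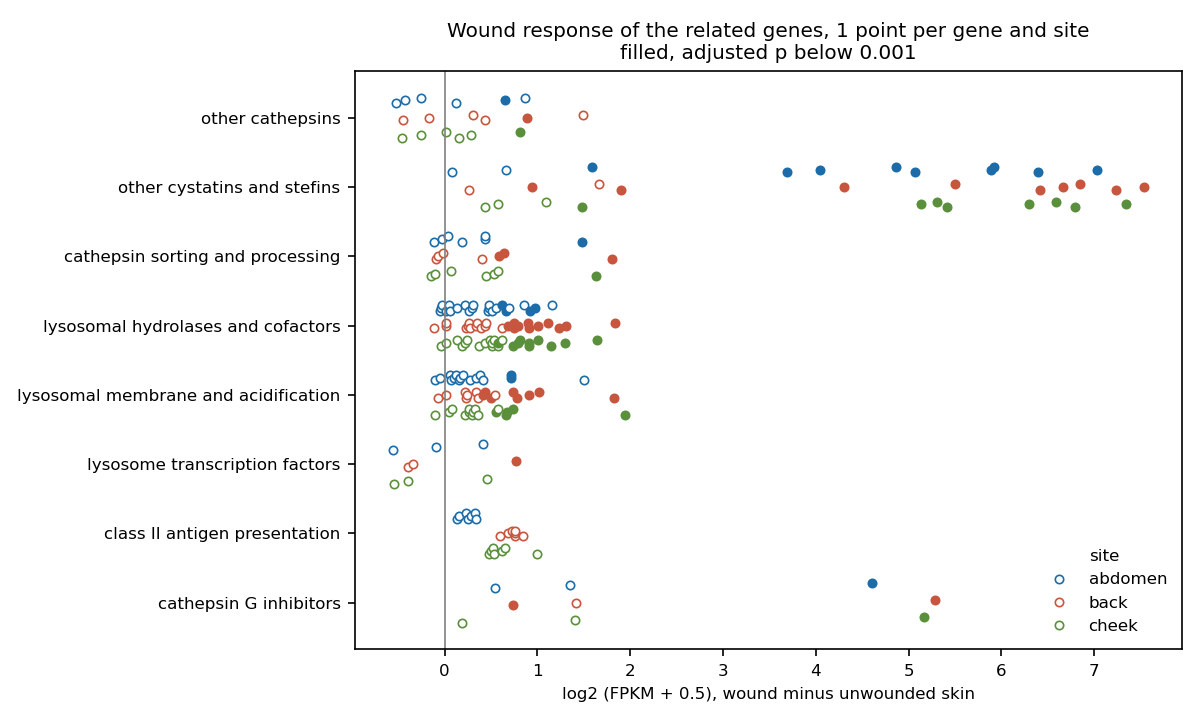
Wound response of each tested gene of 8 related lists at the 3 sites, as the difference in log2(FPKM + 0.5), wound minus unwounded; a point is a gene at a site, and filled points have a limma adjusted p below 0.001. The stefin row reaches 7.54 for Gm5416, which passed the filter only with the wound libraries. The hydrolase and membrane rows lie mostly between 0 and 2, and no filled point lies left of 0.

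Within groups, members varied from mouse to mouse with different companions. As a description, Pearson r was computed over the 24 libraries on deviations of log2(FPKM + 0.5) from the 6 group means. The paired libraries share a mouse, and all share library and tissue composition. Companions were picked as the highest r among 14423 tested genes, a choice that by itself gives high values. Ctss was most like Clec4a1, a lectin of myeloid cells (0.907), Slfn2 (0.903) and Ncf1, a subunit of the phagocyte oxidase (0.90). Ctsb was most like the macrophage lysosomal protein gene Cd68 (0.839), Pstpip1 (0.837) and Gmpr2 (0.80). Ctsz was most like Hmox2 (0.835), Tcirg1, a proton pump subunit (0.834), and Tmem219 (0.833), and Ctsc like Zswim6 (0.792), the scavenger receptor gene Msr1 (0.77) and Apobec1 (0.766).

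The companions of the other members were found in the same way. Ctsk was most like Aebp1, a protein of the collagen matrix (0.82), Nmb (0.808) and Adamts2, which trims procollagen (0.802). Ctsd was most like Pld3 (0.893), a lysosomal exonuclease, Cks1b (0.889) and the keratin Krt79 (0.884), and Cst6 like Kcnk7 (0.881), Defb6 (0.88) and Rarg (0.869). Cst3 was most like Tprgl (0.841), Dgcr6 (0.836) and Ccdc90b (0.827). For Ctsl (Syn1, 0.77, Agtr2, 0.74, and Trnau1ap, 0.718) and Ctsg (Acot4, 0.736, Itgb3bp, 0.711, and the granule protease Prtn3, 0.668) most of the companions were at low FPKM. Among the members themselves the highest values were 0.807 for Ctss with Ctsz, 0.722 for Ctsb with Ctsz and 0.673 for Ctsd with Cst6.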

How the data were processed

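RNA-seq was available for 24 skin libraries of 12 mice, grouped by the site, state and mouse in the labels. A sequencing company supplied the authors with FPKM per gene, computed with HISAT2, Bowtie2 (2.2.5) and RSEM (1.2.12) on mm10 and deposited in rounded form without scaling between libraries. The authors' table of DESeq2 fold changes and p-values was not used. FPKM hold no counts, so depth and counting error are unknown, and 0 sample columns were left unused.

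Here limma (3.58.1, with statmod 1.5.0, R 4.3.3; trend, robust) was run on log2(FPKM + 0.5). A gene was tested if 4 or more libraries of the fit reached 0.5 FPKM. Fold changes are on this scale and understate changes of low genes. Wound effects came from all 24 libraries with a term per mouse (adjusted p under 0.001), site differences from the 12 libraries of a state (0.05), and an F test compared wound effects (0.05). Adjusted p follow Benjamini and Hochberg over all genes tested. The code was tested on simulated data.

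The labels pair the libraries of a mouse. Deviations from group means correlated with a mean r of 0.317 within mice and -0.106 between other mice of a site. Deviations cancel within each group, so the negative second value largely follows from the first and is not separate evidence. All 10 members were named. Of each related list, the genes with the largest mean rise or fall called at all 3 sites were named, besides the stefins, Lgmn, Tfeb, Tfe3 and Mitf, and for each member its 3 closest companions. Any further gene was chosen with its values known. Members and lists were chosen with earlier results of these data known. Mice of a group were separate animals, so p-values cover the spread between animals.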

Additional observations from a re-analysis of the deposited data

Results flagged for a closer look

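Of 60 sets of 4 libraries (10 genes in 6 groups), 3 held a library far from the other members of its group, which is what chance flags in about 1 in 20 sets. Ctsb in the abdomen wound of mouse 4 was 485.41 FPKM, against 417.18 to 422.19 FPKM in the other abdomen wounds, and this mouse also had the highest Ctss and Ctsz of its group. Ctsg in unwounded abdomen of mouse 3 was 1.13 FPKM, against 0.57 to 0.63 FPKM. Cst3 in unwounded cheek of mouse 4 was 685.9 FPKM, against 1025.08 to 1090.52 FPKM, in the library that also held the keratins of growing hair follicles. The part of those follicles in the Cst3 value was not tested. No member rose in every mouse of a site and fell in every mouse of another.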

How the results depend on the processing

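Each of 100 values (10 genes in 10 comparisons) was refitted at most 21 times, and no called difference changed sign. Counted by gene, comparison and setting, uncalled values changed sign in 57 cases, and calls were lost in 35 and gained in 7. Counts of members called moved by over 1.5 times in 5 comparisons. For wounds against unwounded abdomen, 4 members were called, 0 with the site's own 8 libraries, and 2 to 4 when a mouse was left out. For cheek the count was 1 with its own 8 libraries. For cheek against abdomen wounds the count was 0 with median-ratio scaling, 0 with mouse number as a replicate block and 0 with all 24 libraries in a fit, and 0 to 2 when a mouse was left out. In unwounded skin, back against abdomen gave 2 members and cheek against back 1 with all 24 libraries in a fit, and back against abdomen 0 to 2 when a mouse was left out. Without the replicate block per mouse the wound counts were 4, 6 and 5 and the F test gave 0, as with it. Between sites, mouse number as a block changed no count other than that of cheek against abdomen wounds. The own-site and left-out fits rest on fewer libraries. The cause of these moves was not tested. FPKM without counts limit what can be said of Ctsg and other genes near 0.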
